A study of Homo sapiens with 10 samples.

Results

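The genes described here are the expressed genes of PC-3 spheroids whose listed span on the genome reaches at least 500 kb (kb, 1000 bases). A gene was a member when it lay on chromosomes 1 to 22, its deposited Stop minus Start was at least 500 kb and its level in untreated spheroids on day 0 was at least 1 CPM (reads per 1000000 counted reads). The rule found 210 members among the 18144 genes of the table, of which 12852 lay on these chromosomes with at least 1 CPM on day 0. The day-0 level thus chose the members, and ratios to day 0 are given as description, in support of no result. The annotation divided the members into 140 genes whose own locus spans at least 500 kb and 70 rows whose listed span runs from a gene to a distant copy of it, and the account below keeps these apart.

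PC-3 is a human prostate cancer cell line, grown here as 3D spheroids and labelled as wild type. The libraries were untreated spheroids on days 0, 3 and 7, spheroids given the conventional topotecan bolus at the start (CONV-TOPO) and collected on days 3 and 7, and spheroids under extended exposure (EE-TOPO), collected on the same days. Under EE-TOPO, daily fractions added up to the same total dose over a week. By day 3 the EE-TOPO spheroids had thus received only part of that dose. There was 1 library for each treatment and day, made from poly(A) RNA with a kit that does not mark strand, and day 1 was left out. Labels call the later time point day 7, whereas the study's text speaks of weeks. In bulk RNA from spheroids, fewer cells of a kind and less RNA per cell cannot be told apart.

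RNA polymerase II needs far longer to copy a long gene than a short one, because it must pass every intron on the way. DNA topoisomerase I removes the supercoils that build up around the moving polymerase. Topotecan, a camptothecin, traps topoisomerase I on the DNA it has nicked, so that the enzyme becomes an obstacle instead of a help. Genes this long are best known from neurons, where many encode adhesion molecules, synaptic scaffolds and channels, and several lie at common fragile sites, which are regions prone to breaks when replication is slowed.

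Of the 210 members, 140 matched a RefSeq gene whose annotated locus spans at least 500 kb, from 501.6 to 2304 kb with a median of 706 kb, and these are called long loci below. They lay on 21 chromosomes, with the most on chromosome 3 (17 genes), chromosome 7 (14 genes) and chromosome 1 (13 genes). The other 70 rows had a RefSeq length of 0.735 to 211 kb where a match was found (61 rows), with 18 rows on chromosome 21 and 16 on chromosome 16. They are called rows that join copies, since the listed span was taken to reach from a copy to another. The copies themselves were not looked up. Their values also differed in kind. The deposited CPM came out as whole reads in all 7 libraries for 128 of 140 long loci and for 4 of these 70 rows and several rows carried the same values (SERF1A and SERF1B, SIK1 and SIK1B). For comparison, 79.4% of all 12852 expressed genes had whole reads throughout. The other 12 long loci were FGF14, IQCJ-SCHIP1, KAZN, KCNMA1, LPP, NAV2, PRKG1, SBF2, SCHIP1, SNHG14, TSNAX-DISC1 and TTC28. Counting intervals given for any of these 12 rest on fractional reads that were rounded. Which copy the reads of the rows that join copies came from cannot be told from gene values.

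The depth estimated from the steps between low values was 15028215 to 22478132 reads per library. A limit of 3 reads, which was 0.133 to 0.2 CPM, was set for low values. Values under it are listed as well, such as DCN at 0.0525 CPM in the untreated library of day 7. The keratins KRT8, KRT18 and KRT19, vimentin, CD44 and ezrin, taken as PC-3 markers, summed to 4120 to 6290 CPM, with the 2 highest sums in the topotecan libraries of day 7. Of the stromal, endothelial and immune markers, DCN and VWF were listed at 0 in several libraries, and the whole list summed to 150 to 220 CPM, mostly from CD68, COL1A1 and PECAM1. The part of these markers in the results was not tested. The untreated library of day 3 stood apart for the long loci. It was set beside the other untreated libraries and the topotecan libraries of day 3. Day 0, which chose the members, is among these, so the count is a description. The untreated library of day 3 held the lowest value for 95 of 140 long loci (67.9%), against 16.8% of all expressed genes. Against it, 23 long loci were at least 2-fold higher on day 7 (background 2.08%) and 3 at least 2-fold lower (background 1.38%) without drug, and against day 0, at least 2-fold lower were 14 on day 3 (background 1.03%) and 1 on day 7 (background 0.537%). Topotecan on day 7 is therefore also compared with the untreated library of day 7 alone.

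The sequences near the annotated gene start are shown for the ends of the day-7 range. They cover the 2 long loci with the lowest and the 2 with the highest mean day-7 ratio. Only loci with at least 5 CPM in the untreated library of day 7 were eligible. On the + strand they are the 250 bases upstream of the RefSeq start (GRCh38.p14). The listed FOXP1 window, on the - strand, instead covers the first 250 bases of its locus. Sequences run 5′ to 3′, and capitals mark CpG dinucleotides.
SNHG14 (chr15:24823358-24823607, + strand): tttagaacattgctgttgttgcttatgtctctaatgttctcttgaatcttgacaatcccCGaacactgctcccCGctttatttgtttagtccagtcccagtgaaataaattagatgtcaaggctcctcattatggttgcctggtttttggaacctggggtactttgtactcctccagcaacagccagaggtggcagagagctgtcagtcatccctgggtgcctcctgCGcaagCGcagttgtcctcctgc
AKAP6 (chr14:32329048-32329297, + strand): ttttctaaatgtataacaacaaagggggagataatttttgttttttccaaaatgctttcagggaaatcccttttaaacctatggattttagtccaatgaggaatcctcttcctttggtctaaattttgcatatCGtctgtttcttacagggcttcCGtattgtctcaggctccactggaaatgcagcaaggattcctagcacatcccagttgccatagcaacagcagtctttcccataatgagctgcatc
CAMTA1 (chr1:6785204-6785453, + strand): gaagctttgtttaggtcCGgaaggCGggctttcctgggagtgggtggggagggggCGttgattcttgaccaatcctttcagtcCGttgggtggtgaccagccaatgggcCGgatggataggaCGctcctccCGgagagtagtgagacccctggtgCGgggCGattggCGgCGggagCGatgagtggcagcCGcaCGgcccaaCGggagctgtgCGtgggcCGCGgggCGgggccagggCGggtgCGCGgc
FOXP1 (chr3:71583729-71583978, - strand): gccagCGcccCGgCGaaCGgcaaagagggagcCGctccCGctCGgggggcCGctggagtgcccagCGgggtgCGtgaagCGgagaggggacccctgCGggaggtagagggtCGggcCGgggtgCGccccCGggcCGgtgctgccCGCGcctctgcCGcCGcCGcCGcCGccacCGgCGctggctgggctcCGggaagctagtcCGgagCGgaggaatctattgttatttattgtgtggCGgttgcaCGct
SNHG14 and AKAP6 had 4 and 2 CpG in these windows, and CAMTA1 and FOXP1 had 22 and 31. Over the 121 long loci with a promoter in the table, the median was 18 CpG and 68.6% held at least 10, against a median of 21 and 85.5% for expressed genes and a median of 11 and 51.9% for all promoters. The letters TATAAA, searched on both strands, stood in 8.26% of the long loci's windows, in 5.34% of those of expressed genes and in 11.1% of all. Genes with further start sites use other promoters than the window shown. Whether other - strand windows also lie inside their loci was not tested.

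On day 7 most long loci were lower with topotecan than without it. Their median level was 0.51 of the untreated day-7 library under EE-TOPO (log2 ratio -0.96, quartiles -1.44 and -0.44) and 0.49 under CONV-TOPO (log2 ratio -1.02, quartiles -1.41 and -0.63). Over all expressed genes the medians were -0.28 and -0.29. At least 2-fold lower were 67 of 140 long loci under EE-TOPO, where 18.8% of all expressed genes were, and 73 under CONV-TOPO, where 19.0% were. Both regimens gave a value below the untreated one in 118 of 140 long loci (84.3%), against 58.6% of all expressed genes, and at least 2-fold lower with both were 53 (37.9%), against 14.2%. At least 2-fold higher were 2 long loci under EE-TOPO (SCHIP1 and PDE4B, background 5.52%) and SCHIP1 under CONV-TOPO (background 4.18%).

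**Figure D1:**
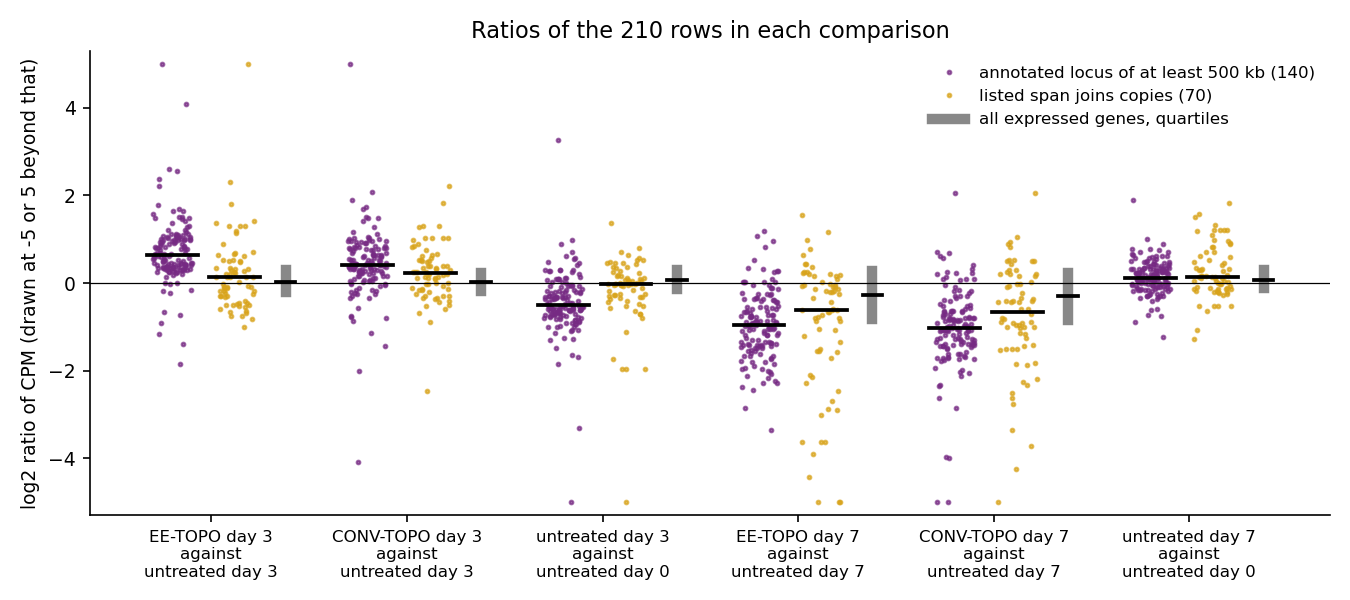
Each point is a member's log2 ratio of CPM in the comparison named below it, with long loci in purple, rows that join copies in yellow, a black line at each median and a grey bar for the quartiles of all expressed genes. On day 7 the long loci centre near -0.96 and -1.02 with both regimens, and on day 3 the untreated library itself lies at -0.50 against day 0, which is a description since day 0 chose the members.

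With TMM factors (a trimmed mean of log ratios) the all-gene medians were -0.05 and -0.04 and those of the long loci -0.74 and -0.77, so that the long loci stayed 0.69 (EE-TOPO) and 0.73 (CONV-TOPO) below all genes on the log2 scale. Against the mean of the untreated libraries of days 3 and 7 the distance was 0.45 and 0.42. In 76 of 140 long loci (54.3%) both topotecan libraries of day 7 lay below all 5 other libraries, compared with 42.7% of all expressed genes. Day 0 is among these 5 and chose the members, so this count is a description.

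The fit over all genes compared topotecan on day 7 (both regimens) with untreated spheroids (days 3 and 7), on log2(TMM-scaled CPM + 1), a scale that understates the change of low genes. In limma, 30 long loci fell and 6 rose at an adjusted p under 0.05. These are 21.4% and 4.29% of the 140, while 21.8% and 19.6% of the 14818 genes tested were called lower and higher. The share called lower thus lay at the background and the share called higher below it. The untreated libraries differed for these genes, with a median log2 ratio of 0.58 between day 7 and day 3 against 0.00 over all genes, and this difference is part of the fit's error. Leaving out an untreated library changes what is compared. Without untreated day 7, topotecan day 7 is set against untreated day 3 alone, so that treatment and day cannot be told apart. The same holds where the call of a single gene is said to be lost without untreated day 7. Without untreated day 3, the comparison is with untreated day 7 alone, the same as with the untreated days apart. Its error then comes from the differences between the regimens only. With the untreated days as groups of their own, 55 were called lower (39.3%, background 20.2%) and 3 higher (CAMTA1, FOXP1 and SCHIP1). With library totals in place of TMM factors, 56 were lower (40.0%, background 32.7%) and 4 higher (2.86%, background 12.6%). The samples of a group in this fit differ in regimen or day and are not replicates, so the p-values measure that spread.

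The long loci with the most reads were all below the untreated day-7 library. CPM is not scaled to transcript length, so this order is one of reads and not of molecules. KCNMA1, the pore of the BK calcium-activated potassium channel, gave 707, 428 and 662 CPM untreated (days 0, 3 and 7), 518 and 508 CPM under CONV-TOPO (days 3 and 7) and 569.8 and 425 CPM under EE-TOPO. ADK, adenosine kinase, gave 248, 126 and 202 CPM untreated, 146 then 164 CPM under CONV-TOPO and 159 then 139 CPM under EE-TOPO. Neither was called in the fit (log2 fold change 0.03, SE 0.194, limma adjusted p = 0.902 for KCNMA1 and log2 fold change 0.15, SE 0.196, limma adjusted p = 0.56 for ADK), and for both the untreated library of day 3 was below or near the topotecan libraries of day 7.

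TENM4, a teneurin of cell adhesion, was at 142, 94.4 and 179.7 CPM untreated (days 0, 3 and 7), 142 and 84.97 CPM under CONV-TOPO (days 3 and 7) and 136 and 51.4 CPM under EE-TOPO. PTPRK, a receptor tyrosine phosphatase, was at 107, 71.8 and 133 CPM untreated, 109.8 then 57.2 CPM under CONV-TOPO and 145 then 52.4 CPM under EE-TOPO. PALM2AKAP2, which joins a paralemmin to a kinase anchor, was at 119.8, 95.6 and 128 CPM untreated, 94.02 then 53.8 CPM under CONV-TOPO and 151 then 45.8 CPM under EE-TOPO. The lowest libraries of these genes were the topotecan libraries of day 7, and PALM2AKAP2 fell (log2 fold change -0.91, SE 0.216, limma adjusted p = 0.00835), while TENM4 and PTPRK missed the threshold (log2 fold change -0.74, SE 0.2895, limma adjusted p = 0.0656 for TENM4 and log2 fold change -0.60, SE 0.246, limma adjusted p = 0.0766 for PTPRK). PARD3, a polarity scaffold, gave 134, 105 and 135 CPM untreated, 123 then 86.3 CPM under CONV-TOPO and 140.3 then 73.5 CPM under EE-TOPO. TBC1D5, a GTPase-activating protein for Rab7, gave 115, 69.7 and 116 CPM untreated, 90.1 then 55.7 CPM under CONV-TOPO and 105 then 55.8 CPM under EE-TOPO. Both were lower in the topotecan libraries of day 7 than in any other, and neither was called against untreated. The call for PALM2AKAP2 was lost without untreated day 7 (-0.71) or EE-TOPO day 7 (-0.78), with the log2 fold change in parentheses.

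**Figure D2:**
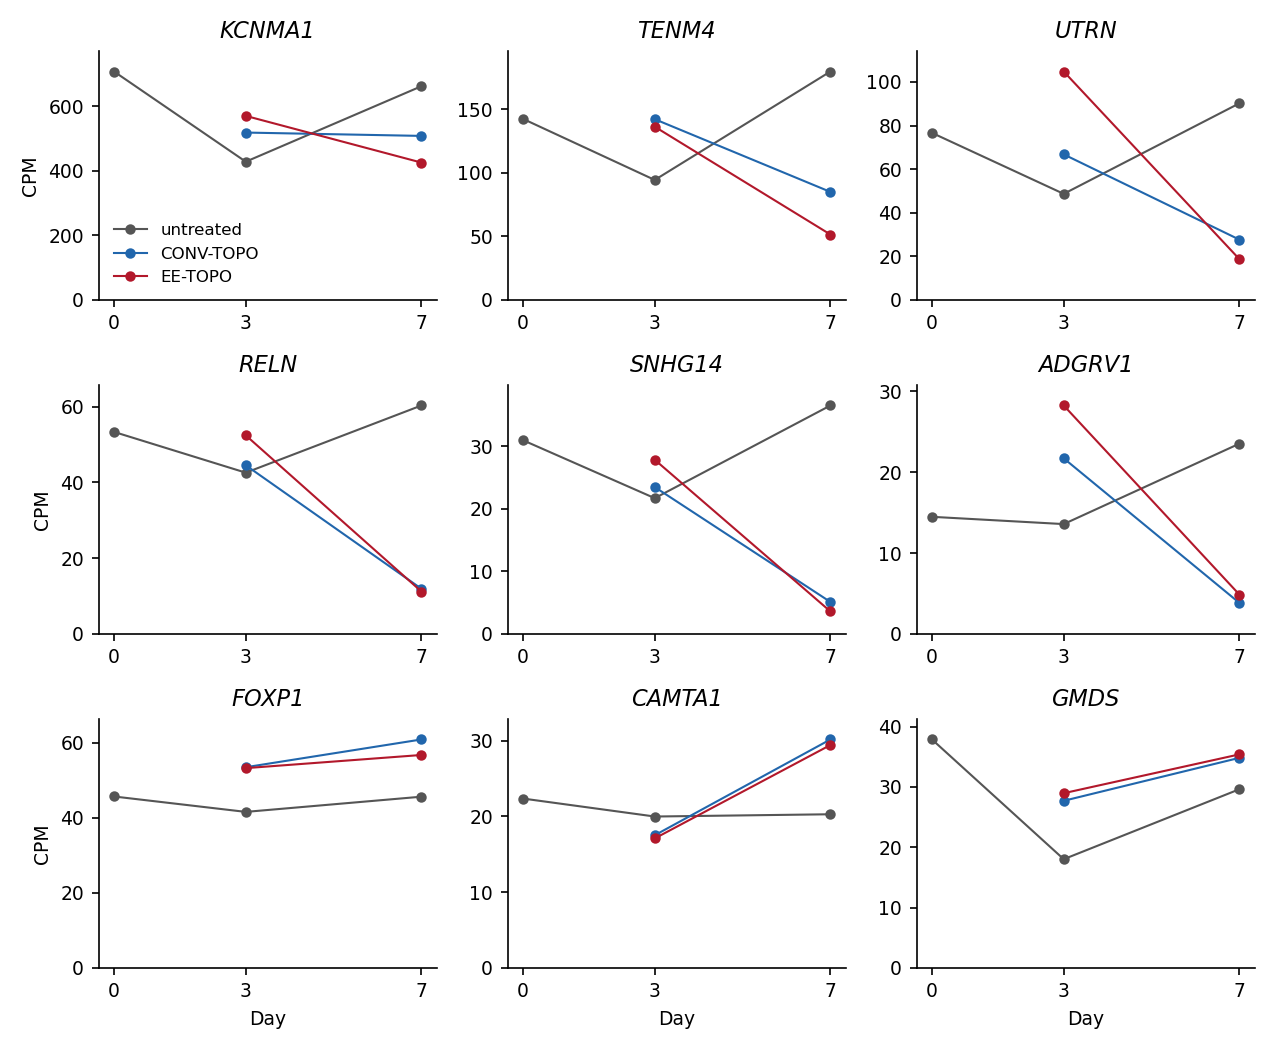
CPM of 9 long loci by day, from 1 library per point, with untreated spheroids in grey, CONV-TOPO in blue and EE-TOPO in red. KCNMA1 and TENM4 have the most reads of the 9, UTRN, RELN, SNHG14 and ADGRV1 have their lowest values in the topotecan libraries of day 7, and FOXP1, CAMTA1 and GMDS lie above the untreated library there.

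Among long loci with at least 5 CPM in the untreated library of day 7, SNHG14 had the lowest mean of the log2 ratios under both regimens, while AKAP6 was lower under CONV-TOPO. SNHG14 and the 7 loci that follow (AKAP6, ADGRV1, RELN, CTNNA3, PRKG1, UTRN and SBF2) were picked by this mean. Their values and fits therefore describe them. SNHG14 is a long noncoding RNA on chromosome 15, 24823608 to 25419462, the host of small nucleolar RNAs whose far end runs antisense to UBE3A, and without strand its reads cannot be told from those of genes it overlaps. Its levels were 30.99, 21.7 and 36.6 CPM untreated (days 0, 3 and 7), 23.5 and 5.11 CPM under CONV-TOPO (days 3 and 7) and 27.9 and 3.59 CPM under EE-TOPO, a ratio of 0.0982 (0.0731 to 0.1298) for EE-TOPO and 0.1396 (0.11002 to 0.175) for CONV-TOPO, and it fell (log2 fold change -2.27, SE 0.259, limma adjusted p = 0.00036).

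AKAP6, a scaffold for protein kinase A (chromosome 14, 32329298 to 32837684), was at 3.11, 3.33 and 5.72 CPM untreated (days 0, 3 and 7), 2.63 and 0.365 CPM under CONV-TOPO (days 3 and 7) and 4.18 and 1.46 CPM under EE-TOPO. ADGRV1, a very large adhesion receptor, was at 14.5, 13.6 and 23.5 CPM untreated, 21.7 then 3.83 CPM under CONV-TOPO and 28.2 then 4.86 CPM under EE-TOPO. RELN, which encodes the secreted matrix protein reelin (chromosome 7, 103471789 to 103989658), was at 53.4, 42.6 and 60.3 CPM untreated, 44.5 then 11.9 CPM under CONV-TOPO and 52.5 then 11.2 CPM under EE-TOPO. All 3 fell, with RELN at log2 fold change -1.83, SE 0.184, limma adjusted p = 0.00024. In each the topotecan libraries of day 7 did not overlap with the other 5, a description since day 0 is among them. The call for AKAP6 was lost without untreated day 7 (-1.12) or CONV-TOPO day 7 (-0.99), with the log2 fold change in parentheses. CTNNA3, alpha-T-catenin of cell junctions, gave 9.82, 5.23 and 11.8 CPM untreated, 7.11 then 2.98 CPM under CONV-TOPO and 8.94 then 2.79 CPM under EE-TOPO. PRKG1, cGMP-dependent protein kinase, gave 12.8, 6.93 and 14.4 CPM untreated, 9.55 then 4.68 CPM under CONV-TOPO and 11.1 then 2.76 CPM under EE-TOPO. For both, the untreated day-3 value lay nearest to these. UTRN, which links the cytoskeleton to the membrane as the relative of dystrophin, gave 76.7, 48.7 and 90.2 CPM untreated (days 0, 3 and 7), 66.8 and 27.7 CPM under CONV-TOPO (days 3 and 7) and 105 and 18.7 CPM under EE-TOPO. SBF2, a myotubularin-related regulator of Rab GTPases, gave 33.9, 23.5 and 41.8 CPM untreated, 33.2 then 9.66 CPM under CONV-TOPO and 42.4 then 13.2 CPM under EE-TOPO. These 4 fell as well, with log2 fold changes of -1.02, -1.07, -1.28 and -1.18 and limma adjusted p-values of 0.0275, 0.0261, 0.00812 and 0.00597. Calls were lost for CTNNA3 without untreated day 7 (-0.51), CONV-TOPO day 7 (-1.06) or EE-TOPO day 7 (-0.97), for PRKG1 without untreated day 7 (-0.60) or EE-TOPO day 7 (-0.75) and for UTRN without EE-TOPO day 7 (-0.99).

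The 3 longest loci held few reads and differed in their ratios. CNTNAP2, a neurexin-like adhesion protein (chromosome 7, 146116801 to 148420998, 2304 kb), gave 2.91, 3.54 and 3.57 CPM untreated, 2.04 then 2.55 CPM under CONV-TOPO and 3.16 then 2.26 CPM under EE-TOPO, a ratio on day 7 of 0.634 (0.407 to 0.9698) for EE-TOPO and 0.715 (0.475 to 1.07) for CONV-TOPO. PTPRD, a receptor tyrosine phosphatase (chromosome 9, 8314246 to 10613002, 2299 kb), gave 1.303, 0.845 and 4.83 CPM untreated, 2.83 then 0.304 CPM under CONV-TOPO and 4.94 then 0.665 CPM under EE-TOPO. Its untreated level was highest on day 7, and its ratio was 0.138 (0.0639 to 0.265) for EE-TOPO and 0.0629 (0.01995 to 0.152) for CONV-TOPO (log2 fold change -1.06, SE 0.462, limma adjusted p = 0.0923). DLG2, a scaffold of the membrane-associated guanylate kinase family (2173 kb), gave 1.503, 1.53 and 1.73 CPM untreated, 3.09 then 0.608 CPM under CONV-TOPO and 2.05 then 0.399 CPM under EE-TOPO and fell (log2 fold change -0.71, SE 0.253, limma adjusted p = 0.0461), a call that was lost when any 1 of the 6 libraries was left out (log2 fold change -0.83 to -0.60).

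By role, the 24 long loci of adhesion, polarity and matrix had medians of -1.46 on the log2 scale under EE-TOPO, the lowest of the lists, and -1.22 under CONV-TOPO, and 17 and 15 of them were at least 2-fold lower (backgrounds 18.8% and 19.0%). In the fit 5 fell (UTRN, ROBO1, PCDH9, CTNNA3 and DLG2), which is 20.8% against the background of 21.8%, and 0 rose, against 19.6%. The same backgrounds apply to the lists that follow. The other members were TENM4, PARD3, THSD4, LPP, TENM3, MAGI1, CADM2, NEGR1, PARD3B, NRXN3, GPC6, SDK1, KAZN, CNTNAP2, CDH12, CTNND2, CDH13, LAMA2 and ADGRL3, among them teneurins, cadherins, a glypican (GPC6), the laminin chain LAMA2 and the adhesion receptor ADGRL3. THSD4, a matrix protein with thrombospondin repeats, had 91.2, 50.3 and 99.8 CPM untreated, 67.7 then 37.4 CPM under CONV-TOPO and 89.3 then 38.6 CPM under EE-TOPO. ROBO1, a receptor for the guidance cue SLIT, was at 78.9 CPM untreated, 28.1 CPM under EE-TOPO and 29.7 CPM under CONV-TOPO on day 7.

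The 13 receptor phosphatases, kinases and growth-factor genes had medians of -1.06 (EE-TOPO) and -1.22 (CONV-TOPO), 12 were lower with both regimens, and PRKG1 alone was called in the fit (7.69% lower). They were PTPRK, PTPRM, PRKCA, CDK14, INPP4B, PRKG1, PTPRN2, ALK, PRKCE, PTPRD, EPHA6, FGF14 and ULK4. PTPRM, a phosphatase of cell contacts, had 70.1, 55.6 and 108 CPM untreated, 95.1 then 39.9 CPM under CONV-TOPO and 111 then 47.98 CPM under EE-TOPO. PRKCA, protein kinase C alpha, had 87.3, 40.9 and 84.4 CPM untreated, 76.7 then 33.5 CPM under CONV-TOPO and 86.3 then 37.1 CPM under EE-TOPO. In both, the untreated level of day 3 was the nearest to the topotecan levels of day 7. INPP4B, a lipid phosphatase of the PI3 kinase pathway, was at 24.4 CPM untreated and 22.5 and 15.8 CPM under EE-TOPO and CONV-TOPO on day 7.

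The 9 genes of cyclic nucleotide, calcium and channel signalling had medians of -0.85 and -1.02, and 4 fell in the fit (44.4%), namely ANK3, PDE1C, CADPS2 and AKAP6. The others were KCNMA1, PDE4D, GRIK2, PLCB1 and PDE4B. ANK3, ankyrin-G, which anchors channels to the cytoskeleton, had 59.4, 48.3 and 62.4 CPM untreated, 50.1 then 23.9 CPM under CONV-TOPO and 65.1 then 21.4 CPM under EE-TOPO. PDE1C, a phosphodiesterase activated by calmodulin, had 56.4, 58.97 and 60.7 CPM untreated, 50.7 then 30.02 CPM under CONV-TOPO and 58.9 then 33.7 CPM under EE-TOPO. Both held the lowest values in the topotecan libraries of day 7.

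Of 14 further long loci, DOCK1, TTC28, SYNE1 and DLC1 fell and SPAG16 rose in the fit. Those not called were TBC1D5, AGAP1, ARHGAP24, NAV2, STARD13, FRMD4A, NCKAP5, DOCK3 and RGS6. AGAP1, an Arf GTPase-activating protein, had 103, 54.8 and 102 CPM untreated, 93.3 then 62.4 CPM under CONV-TOPO and 109 then 55.03 CPM under EE-TOPO. DOCK1, an exchange factor for Rac, had 37.6, 24.5 and 39.2 CPM untreated, 30.5 then 12.1 CPM under CONV-TOPO and 32.7 then 11.98 CPM under EE-TOPO. In AGAP1 the untreated day-3 level lay below both topotecan levels of day 7, and in DOCK1 above them.

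The 19 genes of vesicle traffic and membrane transport had medians of -0.91 and -0.84, and 18 were lower with both regimens. KIAA1217, ERC1 and NBEA fell in the fit (15.8%), and LRBA, EXOC4, TRAPPC9, EXOC6B, DENND1A, GPHN, SNX29, TMEM117, VPS13B, RABGAP1L, SORCS2, DNM3, GRIP1, SYT1, ATP8A2 and SLC24A3 were not called. LRBA, a BEACH-domain protein of vesicle sorting, had 72.9, 41.2 and 77.04 CPM untreated, 59.5 then 40.5 CPM under CONV-TOPO and 73.9 then 37.3 CPM under EE-TOPO. EXOC4, a subunit of the exocyst, had 79.4, 45.5 and 74.99 CPM untreated, 55.6 then 60.96 CPM under CONV-TOPO and 71.8 then 55.2 CPM under EE-TOPO. TRAPPC9, a subunit of the TRAPP tethering complex, had 66.9, 45.9 and 72.7 CPM untreated, 61.98 then 57.4 CPM under CONV-TOPO and 63.4 then 57.4 CPM under EE-TOPO. On day 7, EXOC4 and TRAPPC9 lay between the untreated values of days 3 and 7 with both regimens.

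The 11 transcription factors, cofactors and chromatin or RNA regulators had medians of -0.68 and -0.65, and 0 of them were at least 2-fold lower under EE-TOPO. HDAC9 and CREB5 fell (18.2%), FOXP1 rose (9.09%), and HIVEP3, SMYD3, MECOM, ZBTB20, SUPT3H, NPAS3, RBMS3 and ESRRG were not called. HDAC9, a class IIa histone deacetylase, had 29.9, 41.1 and 44.7 CPM untreated, 63.6 then 21.6 CPM under CONV-TOPO and 69.6 then 26.2 CPM under EE-TOPO, and its topotecan level was above the untreated one on day 3 and below it on day 7. Its call was lost without CONV-TOPO day 7 (-0.48). HIVEP3, a zinc finger factor, had 27.6, 19.1 and 29.3 CPM untreated, 27.6 then 18.7 CPM under CONV-TOPO and 33.3 then 18.3 CPM under EE-TOPO.

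The 12 enzymes of metabolism, redox and mitochondria had medians of -0.47 and -0.41, and 3 of them were higher than untreated with both regimens. DPYD, which degrades pyrimidines, fell (8.33%), GMDS and SUGCT rose (16.7%), and ADK, IMMP2L, FARS2, MACROD2, LRMDA, WWOX, GALNT13, FHIT and HS6ST3 were not called. IMMP2L, a peptidase of the inner mitochondrial membrane, had 20.99, 10.5 and 20.1 CPM untreated, 18.3 then 17.1 CPM under CONV-TOPO and 13.8 then 13.4 CPM under EE-TOPO.

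The last list, named for DNA repair, cell cycle and protein turnover, held 10 long loci with medians of -0.69 and -0.83, and several of its members are known for other things (PTPRN2 is a phosphatase-like protein of secretory granules, and BBS9 and CEP112 belong to cilia and centrosomes). FBXL17 and CEP112 fell, and BCAS3, FAF1, BBS9, PTPRN2, CDKAL1, NAALADL2, RAD51B and CCSER1 were not called. FBXL17, an F-box protein of ubiquitin ligases, had 64.4, 42.5 and 57.9 CPM untreated, 45.7 then 22.2 CPM under CONV-TOPO and 54.6 then 23.4 CPM under EE-TOPO. BCAS3, a cytoskeletal protein also linked to autophagy, had 27.2, 21.9 and 26.8 CPM untreated, 28.8 then 28.7 CPM under CONV-TOPO and 28.4 then 22.7 CPM under EE-TOPO. FAF1, which binds ubiquitinated proteins, had 17.5, 12.8 and 18.01 CPM untreated, 11.4 then 10.5 CPM under CONV-TOPO and 16.5 then 10.7 CPM under EE-TOPO. Of these 3, BCAS3 stood nearest to its untreated day-7 level, with a ratio of 0.846 (0.735 to 0.972) for EE-TOPO and 1.07 (0.941 to 1.21) for CONV-TOPO.

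The lists left out 29 long loci, which had medians of -0.96 and -1.10. Of these, 8 fell (PALM2AKAP2, RELN, SBF2, SNHG14, MAST4, MCTP1, ADGRV1 and KALRN, 27.6%) and 2 rose (CAMTA1 and SCHIP1, 6.9%). The remaining ones were NEBL, CHRM3, SHANK2, SPOCK1, PLXNA4, SEMA5A, IQCJ-SCHIP1, KSR2, B3GALT1, FAM155A, SEMA6D, SPOCK3, SCAPER, MARCHF1, LINGO2, ASTN2, TSNAX-DISC1, ENOX1 and NCAM2.

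Genes at or near common fragile sites make up 29 of the long loci, among them FHIT, WWOX, IMMP2L, MACROD2, DLG2, CTNNA3 and NAALADL2. Their medians on day 7 were -0.90 under EE-TOPO and -1.03 under CONV-TOPO, next to -0.96 and -1.02 for all long loci, and 7 fell (24.1%, background 21.8%) and 0 rose in the fit (background 19.6%). FHIT was at 1.94 CPM untreated, 1.46 CPM under EE-TOPO and 0.912 CPM under CONV-TOPO on day 7, and WWOX at 3.31, 0.865 and 1.58 CPM. Genes of transcription elongation, termination and DNA topology were taken as a list of their own, which holds no member. Of its 44 genes, 19 fell (43.2%, background 21.8%) and 6 rose (13.6%, background 19.6%) in the same fit. TOP1, the target of topotecan, was at 228, 218 and 193 CPM untreated on days 0, 3 and 7, 205 then 106 CPM under CONV-TOPO and 239 then 114 CPM under EE-TOPO, and fell (log2 fold change -0.67, SE 0.126, limma adjusted p = 0.00293). Their part in the loss of long genes was not tested.

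Against this loss, 26 of the 210 members lay above the untreated library of day 7 with both regimens, 10 of them long loci and 16 of them rows that join copies. These are 12.4% of the members and 7.14% of the long loci, where 30.7% of all expressed genes were above with both. These genes were picked by their day-7 values, so the values describe them. The long loci were SCHIP1, SUGCT, CAMTA1, FOXP1, SPAG16, GMDS, ADGRL3, PDE4B, CCSER1 and FARS2, and the fit called the first 6 of these higher. After TMM scaling, 13 long loci were above, these 10 included.

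FOXP1, a forkhead repressor (chromosome 3, 70954708 to 71583978), gave 45.7, 41.6 and 45.6 CPM untreated (days 0, 3 and 7), 53.5 and 60.9 CPM under CONV-TOPO (days 3 and 7) and 53.3 and 56.8 CPM under EE-TOPO, and its topotecan libraries of day 7 were the 2 highest. Its ratio was 1.24 (1.13 to 1.37) for EE-TOPO and 1.33 (1.22 to 1.46) for CONV-TOPO (log2 fold change 0.65, SE 0.129, limma adjusted p = 0.00366). CAMTA1, a calmodulin-binding transcription activator (chromosome 1, 6785454 to 7769706), gave 22.3, 19.97 and 20.3 CPM untreated, 17.5 then 30.1 CPM under CONV-TOPO and 17.1 then 29.4 CPM under EE-TOPO, so that it was slightly below untreated on day 3 and above every other library on day 7. Its ratio was 1.45 (1.26 to 1.67) for EE-TOPO and 1.49 (1.299 to 1.703) for CONV-TOPO (log2 fold change 0.77, SE 0.153, limma adjusted p = 0.00387).

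GMDS, an enzyme on the path from GDP-mannose to GDP-fucose, gave 37.9, 18.02 and 29.6 CPM untreated, 27.7 then 34.8 CPM under CONV-TOPO and 28.96 then 35.4 CPM under EE-TOPO. Its topotecan levels of day 7 were above untreated days 3 and 7 and below untreated day 0 (log2 fold change 0.80, SE 0.208, limma adjusted p = 0.0127). SPAG16, a protein of the sperm and cilium axoneme, gave 10.1, 8.82 and 9.77 CPM untreated, 11.6 then 11.6 CPM under CONV-TOPO and 11.3 then 11.8 CPM under EE-TOPO, and its intervals include 1, with a ratio of 1.21 (0.976 to 1.49) for EE-TOPO and 1.19 (0.966 to 1.46) for CONV-TOPO (log2 fold change 0.51, SE 0.185, limma adjusted p = 0.0488). The call for SPAG16 was lost without any 1 of the 6 libraries (log2 fold change 0.46 to 0.57), and that for GMDS without untreated day 3 (0.47), CONV-TOPO day 7 (0.80) or EE-TOPO day 7 (0.81). SUGCT, a mitochondrial coenzyme A transferase, gave 4.36, 3.17 and 2.84 CPM untreated, 3.75 then 4.62 CPM under CONV-TOPO and 4.18 then 4.99 CPM under EE-TOPO, with log2 fold change 0.72, SE 0.217, limma adjusted p = 0.024, a call lost without untreated day 7 (0.66), CONV-TOPO day 7 (0.76) or EE-TOPO day 7 (0.69).

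SCHIP1 had the highest CONV-TOPO and EE-TOPO ratios of the long loci, and it shares exons with the read-through gene IQCJ-SCHIP1. SCHIP1 itself gave 1.77, 0.0124 and 2.46 CPM untreated, 2.17 then 10.2 CPM under CONV-TOPO and 3.14 then 5.61 CPM under EE-TOPO (log2 fold change 2.37, SE 0.491, limma adjusted p = 0.00451). IQCJ-SCHIP1 gave 15.1, 12.9 and 17.03 CPM untreated, 15.001 then 4.995 CPM under CONV-TOPO and 17.6 then 10.1 CPM under EE-TOPO. On day 7 the 2 rows differed from untreated in opposite directions, their values were not whole reads in most libraries, and their sum was 19.5 CPM untreated, 15.7 CPM under EE-TOPO and 15.2 CPM under CONV-TOPO, a ratio of 0.806 and 0.779. How reads that both rows share were divided is not given in the sources used here.

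The other 4 were not called. PDE4B, a cAMP phosphodiesterase, gave 2.56, 24.5 and 2.15 CPM untreated (days 0, 3 and 7), 6.12 and 2.31 CPM under CONV-TOPO (days 3 and 7) and 6.81 and 4.52 CPM under EE-TOPO. Its untreated day-3 level was far above every other library, and topotecan stood above untreated on day 7 and below it on day 3. FARS2, a mitochondrial phenylalanyl-tRNA synthetase, had a ratio of 1.01 (0.813 to 1.26) for EE-TOPO and 1.16 (0.948 to 1.43) for CONV-TOPO, CCSER1 of 1.01 (0.567 to 1.79) for EE-TOPO and 1.62 (0.9903 to 2.68) for CONV-TOPO and ADGRL3 of 1.27 (0.498 to 3.22) for EE-TOPO and 1.16 (0.455 to 2.94) for CONV-TOPO. The intervals of these 3 include 1 with both regimens.

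**Figure D3:**
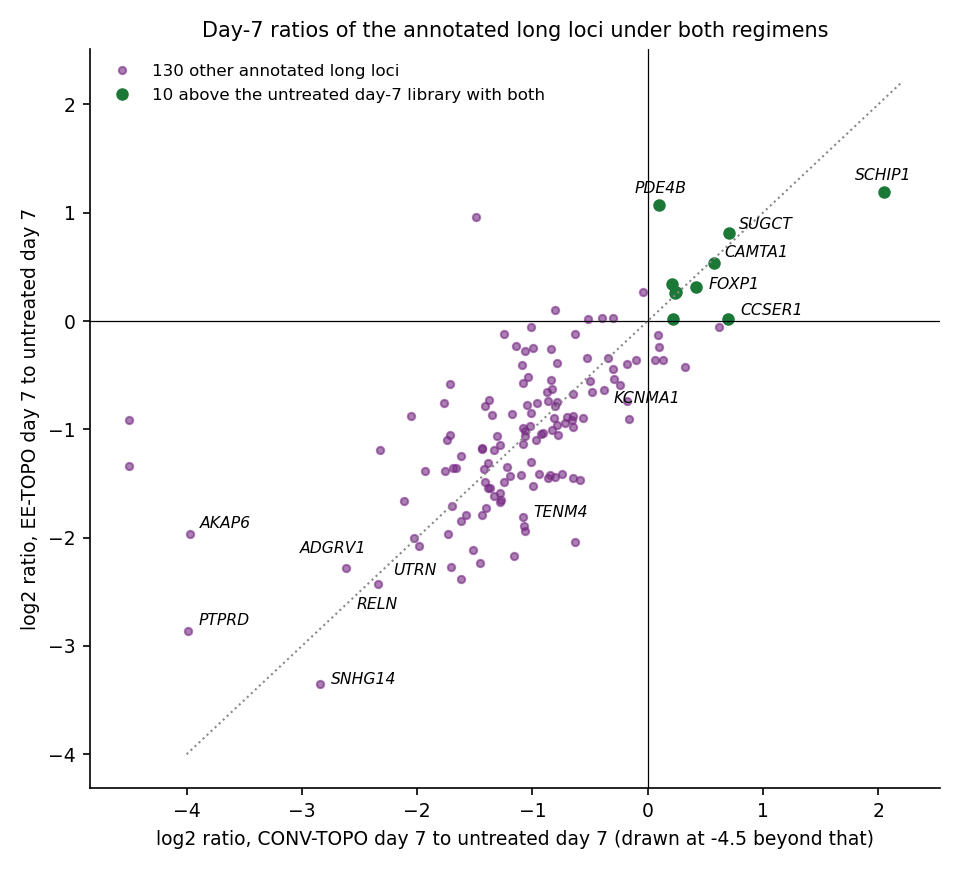
Each point is 1 of the 140 long loci, with the log2 ratio to untreated day 7 for CONV-TOPO across and for EE-TOPO upward, and the dotted line marks equal ratios. Most points lie in the lower left, and the 10 green points in the upper right lie above the untreated library with both regimens.

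The spliced canonical transcripts of these 10 loci had a median length of 3.32 kb against 7.05 kb for the other 130, and their loci a median length of 754 kb against 706 kb. A coding transcript under 100 kb is annotated for 4 of the 10 (SCHIP1, CAMTA1, SPAG16 and PDE4B) and for 33 of 128 others with a coding transcript. Which transcript the reads came from is not given by gene values.

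The 70 rows that join copies differed from the long loci. Their day-7 medians were -0.61 under EE-TOPO and -0.66 under CONV-TOPO, with 25 and 26 at least 2-fold lower, and in the fit 20 fell (28.6%) and 12 rose (17.1%) against backgrounds of 21.8% and 19.6%. The rows with the most reads were NOMO2, HERC2 and GTF2IP1. NOMO2, part of a membrane protein complex of the endoplasmic reticulum, had 168, 151 and 183 CPM untreated, 148 then 156 CPM under CONV-TOPO and 167 then 154 CPM under EE-TOPO. HERC2, a ubiquitin ligase of 211 kb and the longest gene of this group, had 121, 101 and 152 CPM untreated, 127 then 43.02 CPM under CONV-TOPO and 126 then 35.6 CPM under EE-TOPO and fell (log2 fold change -1.41, SE 0.184, limma adjusted p = 0.00056). GTF2IP1, a pseudogene of a transcription factor, had 120.2, 118 and 133 CPM untreated, 140.3 then 189 CPM under CONV-TOPO and 115 then 171 CPM under EE-TOPO and rose (log2 fold change 0.75, SE 0.1396, limma adjusted p = 0.00274).

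Of the 16 rows above untreated with both regimens, those described here came from genes of 0.735 to 23.7 kb. SMIM11A, a small membrane protein, had 9.58, 7.097 and 3.95 CPM untreated, 11.02 then 16.5 CPM under CONV-TOPO and 8.48 then 8.85 CPM under EE-TOPO. CBS, cystathionine beta-synthase, had 1.88, 1.41 and 2.13 CPM untreated, 2.62 then 4.101 CPM under CONV-TOPO and 2.27 then 6.25 CPM under EE-TOPO. Both rose in the fit, although the EE-TOPO day-7 value of SMIM11A lay below its day-0 value, and its call was lost without untreated day 7 (0.90) or CONV-TOPO day 7 (0.83), with the log2 fold change in parentheses. SLX1A and SLX1B, copies of a structure-specific nuclease subunit, had 34.2, 31.9 and 29.4 CPM untreated, 28.4 then 52.4 CPM under CONV-TOPO and 23.8 then 50.1 CPM under EE-TOPO for SLX1A and 9.38, 9.52 and 8.26 CPM untreated, 8.51 then 17.1 CPM under CONV-TOPO and 6.72 then 16.3 CPM under EE-TOPO for SLX1B. BOLA2B, an iron-sulfur protein, had 33.9, 24.4 and 23.5 CPM untreated, 19.3 then 34.02 CPM under CONV-TOPO and 20.04 then 36.4 CPM under EE-TOPO. U2AF1, a splicing factor for the 3′ splice site, had 38.1, 43.1 and 37.5 CPM untreated, 31.7 then 50.7 CPM under CONV-TOPO and 30.2 then 44.04 CPM under EE-TOPO. All 4 rose as well, U2AF1 with a call lost without untreated day 7 (0.35), CONV-TOPO day 3 (0.45), CONV-TOPO day 7 (0.34), EE-TOPO day 3 (0.45) or EE-TOPO day 7 (0.57), whereas SERF1A and SERF1B, whose values are equal, had 14.8, 14.2 and 10.2 CPM untreated, 12.9 then 14.5 CPM under CONV-TOPO and 10.4 then 12.3 CPM under EE-TOPO and were not called. The others were GTF2IP1, given above, U2AF1L5, LSP1P5, GATD3A, GATD3B, ICOSLG, LOC554249 and BOLA2.

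The lowest ratios of all members with at least 5 CPM also lay in this group. The next 5 rows were picked by their day-7 ratios, so their values and fits describe them. LOC100190986 had 3.46, 3.38 and 10.3 CPM untreated, 6.84 then 0.547 CPM under CONV-TOPO and 7.74 then 0 CPM under EE-TOPO. PKD1P4-NPIPA8, a read-through of pseudogene copies, had 8.93, 8.87 and 17.6 CPM untreated, 14.9 then 0 CPM under CONV-TOPO and 16.5 then 0.0942 CPM under EE-TOPO. Both were at or under the limit of 3 reads with a topotecan library of day 7. WHAMMP1 had 4.32, 5.07 and 9.899 CPM untreated, 6.002 then 0.972 CPM under CONV-TOPO and 4.31 then 0.665 CPM under EE-TOPO. GOLGA8N had 4.804, 5.33 and 13.7 CPM untreated, 6.95 then 2.42 CPM under CONV-TOPO and 4.896 then 0.634 CPM under EE-TOPO. NPEPPSP1 had 6.305, 6.29 and 7.88 CPM untreated, 8.999 then 1.73 CPM under CONV-TOPO and 6.903 then 0.985 CPM under EE-TOPO. All 5 fell, GOLGA8N with a call lost without untreated day 7 (-1.28) or EE-TOPO day 7 (-1.31). The longest listed spans, GUSBP1, LOC102723996 and ICOSLG, belong to genes of 129.9, 24.2 and 23.96 kb. GUSBP1, a pseudogene, had 5.97, 6.22 and 6.43 CPM untreated, 6.73 then 4.74 CPM under CONV-TOPO and 7.68 then 7.32 CPM under EE-TOPO. LOC102723996 had 24.5, 25.2 and 34.01 CPM untreated, 27.97 then 14.3 CPM under CONV-TOPO and 36.3 then 18.8 CPM under EE-TOPO. ICOSLG, an immune costimulatory ligand, had 76.5, 74.1 and 92.5 CPM untreated, 117 then 104 CPM under CONV-TOPO and 120.1 then 106 CPM under EE-TOPO.

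The remaining rows of this kind included NOMO3, NUDT4P2, TCAF2, NPIPB5, RRN3, SMN1, CBWD5, LOC102724159, PWP2, LOC100288637, SIK1B, SIK1, RGPD6, RGPD8, SMN2, GTF2H2C, RGPD5, NPIPB12, HERC2P9, TBC1D3L, SMIM11B, SLX1B-SULT1A4, SLX1A-SULT1A3, LOC102723360, GTF2H2C_2, LINC02256, FAM72C, TBC1D3I, TBC1D3D, LOC102724951, LOC102724219, LOC102724843, SULT1A4, CBWD3, SULT1A3, GTF2H2B, LOC102725021, GUSBP3, RRN3P3, GOLGA8J, CBSL, LOC101929950 and LOC100128340.

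On day 3 the long loci stood on the other side. Against untreated day 3 their median log2 ratio was 0.64 under EE-TOPO and 0.41 under CONV-TOPO, against 0.03 over all genes with each, and 128 and 115 of 140 were higher. At least 2-fold higher were 38 (EE-TOPO, background 2.86%) and 17 (CONV-TOPO, background 1.68%), and at least 2-fold lower were 3 (background 0.895%) and 4 (background 0.887%). The untreated library of day 3 was itself low for these genes, with a median of 0.58 in the untreated day-7 library against it, where all genes had 0.00. Against the mean of untreated days 3 and 7 the medians with topotecan were 0.37 and 0.09. In limma, topotecan on day 3 against untreated called 0 of 14818 genes (681 lower and 610 higher at an unadjusted p under 0.05), and among the long loci 8 were higher and 2 lower at an unadjusted p under 0.05. Without untreated day 3, topotecan day 3 would be set against untreated day 7, so the comparison cannot be made within day 3.

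Compared with each other, the topotecan libraries of days 7 and 3 give a difference that holds no untreated library, although these enter its error. In this comparison 60 of 140 long loci fell (42.9%, background 23.7%) and 4 rose (2.86%, background 21.9%), with a median fitted change of -0.60 against -0.05 over all genes. The long loci that rose were CAMTA1, FOXP1, GMDS and SCHIP1. Among those that fell, HDAC9 had log2 fold change -1.18, SE 0.144, limma adjusted p = 0.00032, ANK3 log2 fold change -1.03, SE 0.175, limma adjusted p = 0.00146 and PTPRK log2 fold change -0.92, SE 0.246, limma adjusted p = 0.0134. Without the EE-TOPO library of day 3, 22 fell (15.8%, background 13%), and without the CONV-TOPO or the EE-TOPO library of day 7, 36 (25.7%, background 17.2%) and 38 (27.1%, background 17.5%) did. Time in culture is part of this comparison and cannot be told apart from exposure in it.

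With each topotecan group set against its own untreated day, the effect of day 7 was below that of day 3 for 57 long loci (40.7%, background 13.8%) and above it for CAMTA1 and PDE4B (1.43%, background 14.7%), the latter with its high untreated value of day 3. The median difference was -1.04 on the log2 scale, against -0.03 over all genes. This contrast was added after the data were seen. It holds the low untreated library of day 3, and no such difference can be had without that library. Without the EE-TOPO library of day 3, 27 long loci were below (19.4%, background 4.83%).

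Between the regimens on day 7, the median ratio of EE-TOPO to CONV-TOPO over the long loci was -0.05 on the log2 scale (0.01 over all genes), and 10 were at least 2-fold higher and 2 at least 2-fold lower under EE-TOPO (backgrounds 2.3% and 1.96%). The counting interval of the ratio included 1 for 86 of 140, lay above 1 for 22 and below 1 for 32. TENM4 lay lower under EE-TOPO, at a ratio of 0.605 (0.554 to 0.661), as did UTRN at 0.676 (0.581 to 0.786). SPOCK1, a matrix proteoglycan, lay higher at 1.67 (1.41 to 1.99), as did NAV2, a cytoskeletal protein, at 1.59 (1.31 to 1.92). These were chosen after their values were seen, and the intervals cover counting error only.

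On day 3 the median was 0.27 (0.02 over all genes), and 114 of 140 long loci were higher under EE-TOPO, though 6 were at least 2-fold higher (background 1.1%) and 1 was at least 2-fold lower (background 0.607%). The doses received by day 3 differed, since EE-TOPO had given only part of the weekly total. With treatment and day as terms, limma called 0 of 14818 genes between the regimens (34 lower and 100 higher at an unadjusted p under 0.05, of which 1 was a long locus), and 0 between either regimen and untreated (at an unadjusted p under 0.05, 183 lower and 344 higher for EE-TOPO, and 96 lower and 161 higher for CONV-TOPO). The contrasts of this fit with untreated run over both days, and most long loci lay below untreated on day 7 and above it on day 3. Without untreated day 3 these contrasts hold day 7 only, and without untreated day 7 they hold day 3 only. Leaving out either library therefore changes the day compared, and those calls are not set beside these. From the 4 topotecan libraries alone, NAV2 and SPOCK1 were called higher under EE-TOPO (1.45%, background 0.316%).

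Over all expressed genes the day-7 level went down with length. By RefSeq length the median log2 ratio under EE-TOPO was 0.17 for genes under 20 kb, -0.27 at 20 to 50 kb, -0.59 at 50 to 100 kb, -0.78 at 100 to 200 kb, -0.83 at 200 to 500 kb and -0.98 at 500 kb and more, with 0.14, -0.30, -0.62, -0.77, -0.89 and -1.01 for CONV-TOPO. The top class holds 161 genes, namely the long loci and 21 genes that reach 500 kb by RefSeq but not by deposited span. On day 3 the same classes went from -0.12 to 0.62 under EE-TOPO and from -0.05 to 0.39 under CONV-TOPO, and in the untreated library of day 7 against that of day 3 the class of 500 kb and more had 0.52 where genes under 20 kb had -0.09.

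**Figure D4:**
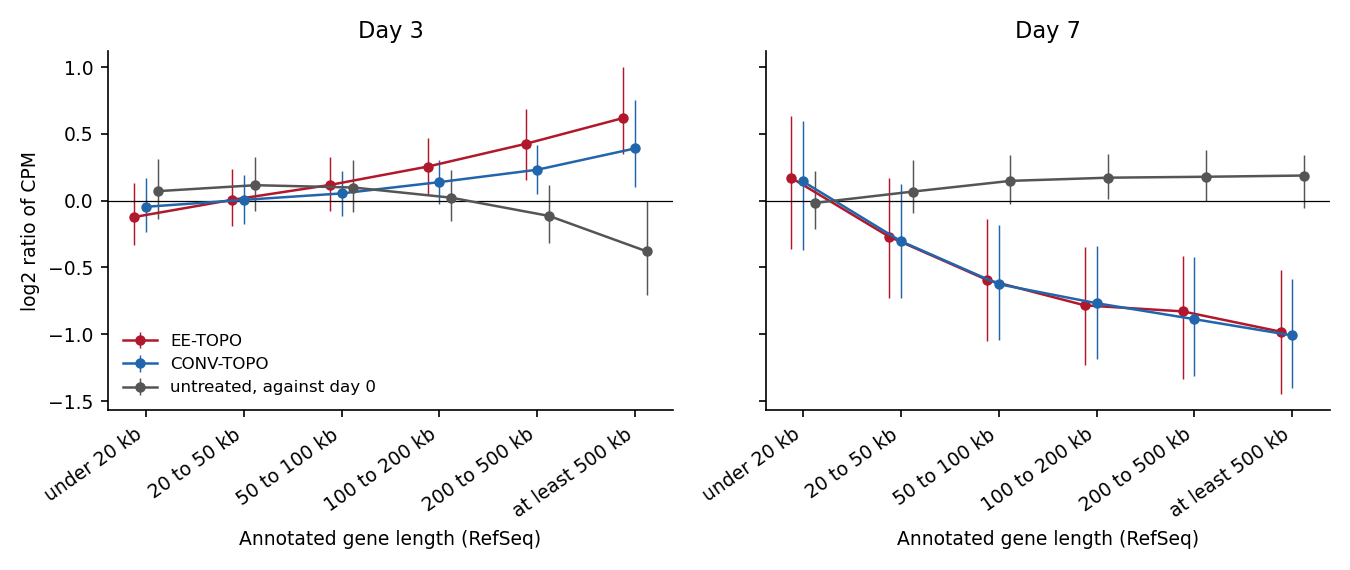
Median log2 ratio of CPM (points) with quartiles (bars) by annotated gene length, on day 3 (left) and day 7 (right), for both regimens against the untreated library of the day and for the untreated library against day 0. On day 7 both topotecan lines go from 0.17 and 0.14 in the shortest class to -0.98 and -1.01 in the longest, and on day 3 the untreated line bends down at the long end (a description, as day 0 chose the members).

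Within the 140 long loci, locus length no longer ordered the loss. The rank correlation (Spearman) of length with the day-7 ratio was -0.015 for EE-TOPO and 0.108 for CONV-TOPO over 140 genes, against -0.469 and -0.476 over 12740 genes. The median under EE-TOPO was -0.98 for the 49 loci of 500 to 600 kb and -1.10 for the 27 of at least 1000 kb, and under CONV-TOPO -1.08 and -0.86. Spliced transcript length still ordered it, at -0.416 and -0.360. The 23 long loci with a canonical transcript under 4 kb had medians of -0.39 (EE-TOPO) and -0.56 (CONV-TOPO), the 61 of 4 to 8 kb -0.94 and -0.96, and the 56 of at least 8 kb -1.18 and -1.17. By exon number, the 43 loci with at least 25 exons had -1.42 and -1.37 and the 33 with under 12 exons -0.74 and -0.81. Length, exons and transcript length go together, and the points share the same libraries, so these correlations are descriptions.

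The same split over all expressed genes showed both lengths. Among genes with transcripts under 3 kb the median under EE-TOPO went from 0.35 under 20 kb of locus to -0.39 at 500 kb and more (15 genes), and among those with transcripts of at least 6 kb from -0.40 to -1.16 (101 genes). Loci of 100 to 200 kb and of 200 to 500 kb already had -0.25 and -0.29 with transcripts under 3 kb. With transcripts of at least 6 kb they had -1.07 and -1.14, close to the class of 500 kb and more. Transcript GC content, which had a rank correlation of 0.473 (EE-TOPO) with the day-7 ratio over 12603 genes, had 0.028 within the long loci. The 37 long loci with an annotated coding transcript under 100 kb had medians of -0.75 and -0.80, and the 101 without had -1.01 and -1.05.

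**Figure D5:**
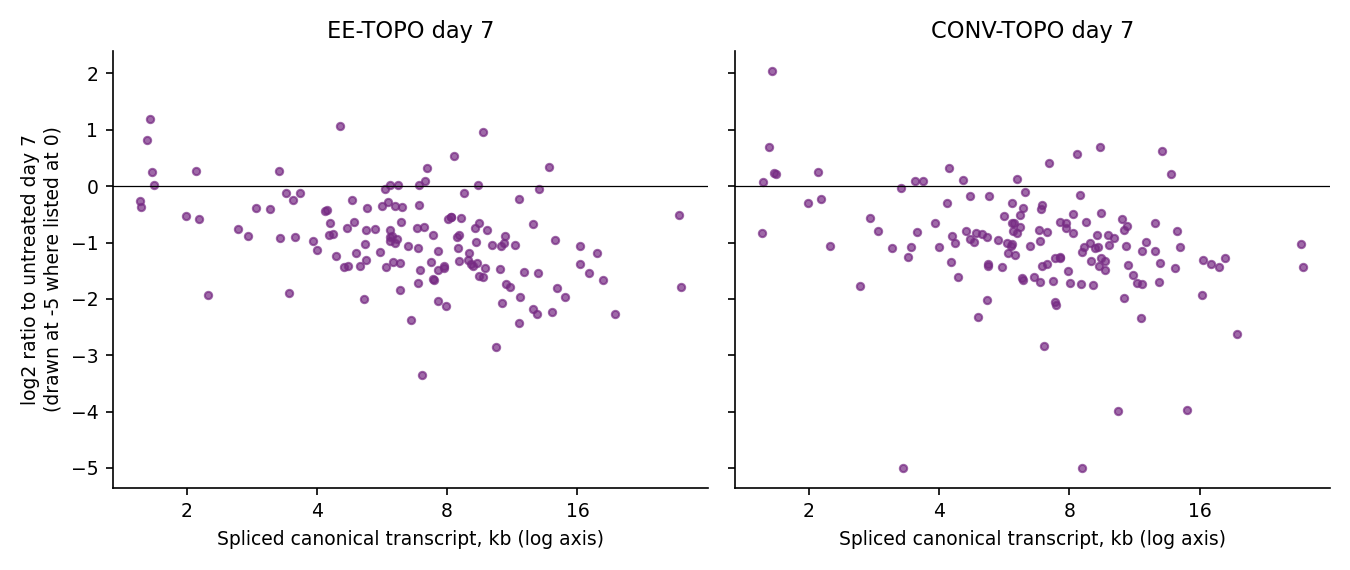
Log2 ratio of CPM to untreated day 7 (vertical) against the length of the spliced canonical transcript in kb (horizontal, log axis) for the 140 long loci, under EE-TOPO on the left and CONV-TOPO on the right. Loci with transcripts under 4 kb centre at -0.39 and -0.56, and those of at least 8 kb at -1.18 and -1.17.

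Just inside the span limit were SPOCK3 (501 kb), ERC1 (505 kb) and BBS9 (506 kb), with log2 ratios on day 7 of -0.39, -0.98 and -1.13 under EE-TOPO. Just outside were DIAPH3 (498 kb), CPQ (498 kb) and ITPR2 (498 kb), with -1.08, 0.27 and -1.77. Just inside the level limit were HS6ST3, LAMA2 and RGS6, at 1.05, 1.15 and 1.202 CPM on day 0, and just outside were ANK2, SLC9A9 and ADGRL2, at 0.952, 0.952 and 0.902 CPM. All 6 rest on few reads, and HS6ST3 and ANK2 were listed at 0 under CONV-TOPO on day 7.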

How the data were processed

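RNA from PC-3 spheroids was sequenced by the authors. According to the paper and the labels, libraries were built with the TruSeq RNA kit version 2, reads were mapped to hg38 with STAR and counted per gene, and values were processed with Partek. The strand setting of the counting is not given in the sources used here. The authors deposited CPM, in which each library sums to 1000000, with an offset of 0.0001 that was subtracted here. The 7 libraries were matched by the identifier in each label. The members and gene lists were chosen with earlier results of these data known.

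Spans are the deposited Stop minus Start. Locus lengths and promoters came from RefSeq on GRCh38 (201 of 210 members matched), and transcripts from GENCODE 44. Ratios of single libraries carry exact conditional binomial 95% intervals from estimated reads and cover counting error only. A call is a ratio of at least 2-fold or, in limma 3.58.1 (R 4.3.3), a Benjamini-Hochberg adjusted p under 0.05 on log2(TMM-scaled CPM + 1), with a mean-variance trend and genes that reached 0.528 CPM (10 reads for a library of median depth) in 2 or more libraries. Topotecan day 7, topotecan day 3 and untreated (days 3 and 7) were groups of 2 libraries, with 3 residual degrees of freedom. Treatment and day as terms left 2, as did the untreated days apart. Day 0 chose the members and was left out of the fits. Low values were whole reads, within 0.1 read, for 91.0% to 92.9% per library, which was taken as too few to rebuild counts, so no test for counts was run.

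Members were named once, and in full the 10 with the most reads, up to 15 above untreated day 7 with both regimens, the 8 with the lowest day-7 ratios (here also the 8 lowest long loci), the 3 longest, 3 per role list and the nearest to each limit. Results for some genes and gene lists are not reported here. Alternatives covered scaling, baseline, filter, pseudocount, span limit, threshold, groups and leaving out each library. On simulated data for topotecan day 7 against untreated with 200 genes changed 4-fold, the fit recovered 100%, 100% and 93% at a noise SD of 0.1, 0.2 and 0.4 (log2), with 8, 5 and 8 false calls over 14386, 14390 and 14349 genes. The changed genes averaged at least 5 CPM, noise was independent between libraries, and library totals were used. No difference between untreated days was simulated, so these rates do not apply to the long loci. The other steps ran in Python 3.11.15 with pandas 2.3.3, numpy 2.4.6 and, for intervals and plots, scipy 1.17.1 and matplotlib 3.10.9.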

Additional observations from a re-analysis of the deposited data

Results flagged for a closer look

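The effect of topotecan differed between days for some members, by the test of the difference itself in the fit with the untreated days apart. At a limma adjusted p under 0.05, it was lower on day 7 than on day 3 for 57 long loci (40.7%) and 18 rows that join copies (25.7%). The background was 13.8%. It was higher for 2 long loci (1.43%) and 6 rows that join copies (8.57%), against a background of 14.7%. The low untreated library of day 3 enters this difference, and its part was not tested.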

How the results depend on the processing

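The values here cover all 210 members, with both kinds of row. At least 2-fold lower on day 7 were 92 with EE-TOPO (background 18.8%) and 99 with CONV-TOPO (background 19.0%). At a span limit of 300 kb, which takes in more genes, these became 209 and 216. At 700 kb, which takes in fewer, they became 58 and 61, and for rows that join copies alone 25 and 26. Under median-of-ratios size factors, 64 were with CONV-TOPO (background 11.1%). The median with EE-TOPO, -0.87, was -0.61 under those factors and -0.61 for joined rows. The median with CONV-TOPO, -0.95, was -0.69 with TMM factors, -0.66 with median-of-ratios factors, -0.70 against untreated days 3 and 7 and -0.66 for joined rows. On day 3 the median with EE-TOPO, 0.48, was 0.25 against untreated days 3 and 7, 0.14 against day 0 and 0.13 for joined rows, and with CONV-TOPO, 0.38, it was 0.0517 and -0.00576 for the 2 baselines. Members at least 2-fold lower on day 3 were 4 with EE-TOPO (13 at 1.5-fold, and 1 at 700 kb, with 1 CPM added or for joined rows) and 5 with CONV-TOPO (12 at 1.5-fold, 3 with at least 5 CPM untreated, and 1 at 700 kb or for joined rows). The backgrounds at 2-fold were 0.895% and 0.887%.

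For topotecan day 7 against untreated, limma called 50 members lower (30 long loci, 20 joined rows, background 21.8%) and 18 higher (6 long loci, background 19.6%). With library totals 80 were lower (background 32.7%) and 10 higher (background 12.6%). With the untreated days apart 76 were lower (background 20.2%). Leaving out each library gave 29 to 76 lower (29 without untreated day 7, 30 without EE-TOPO day 7, 76 without untreated day 3) and 10 to 15 higher (10 and 11 without CONV-TOPO and EE-TOPO day 7). For topotecan day 7 against day 3, 81 lower (21 joined rows) ranged from 33, without EE-TOPO day 3, to 89, with 51 without either topotecan library of day 7, and 15 higher (8 with totals, 4 long loci) from 7, without EE-TOPO day 3, to 16. EE-TOPO against CONV-TOPO called 0 higher, 3 from the topotecan libraries alone, and 0 to 3 without each library. Against untreated over both days, 0 were lower with either regimen, with 0 to 83 (EE-TOPO) and 0 to 91 (CONV-TOPO) without each library, the highest without untreated day 3. The day-7 effect was below that of day 3 for 75 members, with 35 to 84 without each topotecan library, and above it for 8, with 1 to 10, where the lowest were without EE-TOPO day 3. The cause of these changes was not tested. Where a library was left out, the lone one of its group was taken to vary like the others.

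Of 36 named members called on day 7, 435 recomputed values kept direction and call, 62 kept direction and lost the call, and 0 reversed. No paired analysis was possible because the labels give no replicate numbers. The day that groups share was a term of the fit between regimens. With 1 library per treatment and day, neither culture nor library error was measured.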
